A study of Mus musculus with 18 samples.

Results

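The 9 genes described here handle zinc in the gut lining: the metallothioneins Mt1 and Mt2, the zinc-sensing transcription factor Mtf1, the importers Slc39a4, Slc39a5 and Slc39a8, and the exporters Slc30a1, Slc30a2 and Slc30a10. They were chosen by symbol for their role, and are 9 of 12804 named genes measured. Each was read from its brightest detected probe, and 9 of 9 passed the filter of detection in at least 3 arrays. Of these, 8 were detected in 18 of 18 arrays, and Slc39a8 in 8 of 18, with at least 1 array in each group. Transcripts were measured on Illumina single-colour bead arrays in ileal epithelium of CD-1 pups, an outbred mouse stock, 3 mice in each of 6 groups. All pups were specific pathogen-free, of both sexes, and got 1 orogastric gavage of 50 uL of phosphate-buffered saline (PBS), alone or carrying 1e+08 colony-forming units of the gut bacterium Lactobacillus reuteri. The strain was DSM 17938 or ATCC PTA 6475, and tissue was taken after 4 h, when pups were 11 days old, or after 24 h, when they were 12 days old. Laser capture, which lifts chosen cells off a tissue section, took the epithelium from 24 sections of each pup's terminal 4 cm of ileum. No group went without gavage, so the handling is common to all 6 groups, and hour after gavage and age of the pups cannot be told apart.

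Metallothioneins are small cysteine-rich proteins that bind zinc and copper, and their genes are switched on when free zinc in the cell rises. MTF1 senses that zinc and binds metal response elements in their promoters and in the promoter of Slc30a1. Zip proteins (the Slc39 family) bring zinc into the cytosol from outside the cell or from vesicles, and ZnT proteins (the Slc30 family) move it out. In the intestine, ZIP4 takes up dietary zinc at the brush border, and metallothionein holds zinc inside the enterocyte. Glucocorticoids and inflammation also raise metallothionein transcripts.

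The promoters of Mt1, Mt2 and Slc30a1 are shown because metal response elements are best known from these genes, and because Mt1 and Mt2 varied together among the mice. Sequences are from RefSeq, mouse build GRCm38.p6, from 250 bases before to 50 after the start of the gene, 5′ to 3′ on the strand of the gene. Capitals mark each match to the core of the metal response element, searched as TGCACNC or TGCGCNC on both strands.
Mt1 (chr8:94178839-94179138, plus strand): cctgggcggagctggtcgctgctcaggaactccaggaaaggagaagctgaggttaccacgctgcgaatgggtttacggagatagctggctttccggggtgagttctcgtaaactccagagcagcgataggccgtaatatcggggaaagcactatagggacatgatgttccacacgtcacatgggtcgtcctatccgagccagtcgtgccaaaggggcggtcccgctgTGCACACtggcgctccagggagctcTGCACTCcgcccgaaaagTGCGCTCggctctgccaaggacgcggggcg
Mt2 (chr8:94172368-94172667, plus strand): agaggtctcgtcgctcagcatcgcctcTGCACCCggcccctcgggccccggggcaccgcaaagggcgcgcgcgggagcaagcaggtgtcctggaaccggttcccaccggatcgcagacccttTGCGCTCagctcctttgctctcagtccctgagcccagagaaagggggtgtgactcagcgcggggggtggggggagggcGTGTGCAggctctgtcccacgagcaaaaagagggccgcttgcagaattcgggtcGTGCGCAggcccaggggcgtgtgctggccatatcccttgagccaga
Slc30a1 (chr1:191906531-191906830, plus strand): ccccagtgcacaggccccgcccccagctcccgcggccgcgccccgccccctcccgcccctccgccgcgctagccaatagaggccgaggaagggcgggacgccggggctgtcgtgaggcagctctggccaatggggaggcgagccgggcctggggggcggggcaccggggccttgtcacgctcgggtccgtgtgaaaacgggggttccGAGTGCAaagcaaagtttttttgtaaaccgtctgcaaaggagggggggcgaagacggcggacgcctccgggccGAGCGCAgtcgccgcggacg
Each window was placed by its RefSeq start, and bases outside it were not searched for cores. The Mt1 window held 3 cores, all forward. The Mt2 window held 4, of which 2 were forward and 2 reverse, and the Slc30a1 window held 2, both reverse. Among the other members, Slc30a10 had 3 matches, 2 of them overlapping on opposite strands, and Slc30a2 had 2. Slc39a5 and Slc39a8 each had 1 match in 1 of 2 promoters, and Mtf1 had 0. RefSeq promoters were matched to 8 of the 9 members, all but Slc39a4. Of 32851 promoters of the same length, 25.7% held at least 1 core and 1.97% held 3 or more. A match of letters is a description and does not show that MTF1 binds there.

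The arrays had mean signals of 210.3 to 459.7, with 20284 to 22848 of 45281 probes detected. Of the enterocyte markers, 7 of 8 were measured, with a summed level of 14.16 to 14.98 on the log2 scale, and the probe for Fabp2 was not detected in any array. Smooth muscle markers were detected too, with a summed level of 14.91 to 15.62 for 5 of 5 genes, and fibroblast and endothelial markers summed to 13.49 to 14.45 for 6 of 6. The brightest gene was Acta2 (mean 14.97) in the smooth muscle sum and Apoa4 (13.88) in the enterocyte sum. Each sum leans on its brightest genes and does not measure the amount of a cell type. The part of smooth muscle, fibroblast and endothelial cells in the results was not tested. Of the leukocyte markers 5 of 9 were measured, the T cell genes Cd3e and Cd3d, the B cell gene Cd79b, and Lyz2 and H2-Ab1 of myeloid and antigen-presenting cells, each detected in 18 arrays. Their summed level was 8.18 to 11.00, while the probes for Ptprc and Itgam did not pass the filter. In bulk samples of this kind, fewer cells of a type and less RNA per cell cannot be told apart. Limma, fitted to all 18 arrays, called 0 of 16835 features at an adjusted p of 0.05 in each of the 12 comparisons made here (0% called in each), and 0 of the 9 members. That fit did not use the replicate numbers on the labels. With the numbers as a block, 246 features passed for ATCC PTA 6475 against PBS at 24 h, and Mt2 passed between the times.

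Mt1 was bright on every array. In PBS pups at 4 h its log2 signals were 15.17, 14.83 and 15.17, and at 24 h they were 15.09, 14.05 and 14.61. In DSM 17938 pups they were 14.86, 14.93 and 14.81 at 4 h, and 14.77, 14.13 and 15.09 at 24 h. In ATCC PTA 6475 pups they were 14.99, 15.04 and 15.17 at 4 h, and 14.44, 14.14 and 14.79 at 24 h. The 4 h mice lay close together in all treatments, the 24 h mice spread further down, and only in ATCC PTA 6475 pups did the 2 times not overlap. The value 15.17 is the highest that an array can hold after quantile normalisation, and Mt1 reached it in 3 of the 9 mice sampled at 4 h. Those 3 mice have no order for this gene.

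Mt2 is the partner gene that lies beside Mt1 on chromosome 8. Its log2 signals in PBS pups were 8.27, 7.81 and 8.56 at 4 h, and 7.88, 6.30 and 7.47 at 24 h. In DSM 17938 pups they were 8.03, 7.50 and 8.07 at 4 h, and 7.56, 6.68 and 7.54 at 24 h. In ATCC PTA 6475 pups they were 8.21, 7.65 and 8.82 at 4 h, and 7.30, 6.60 and 7.36 at 24 h. Every treatment had lower values at 24 h, and the times overlapped in PBS and DSM 17938 pups but not in ATCC PTA 6475 pups. From its lowest mouse to its highest, Mt2 spanned 5.74-fold.

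**Figure D1:**
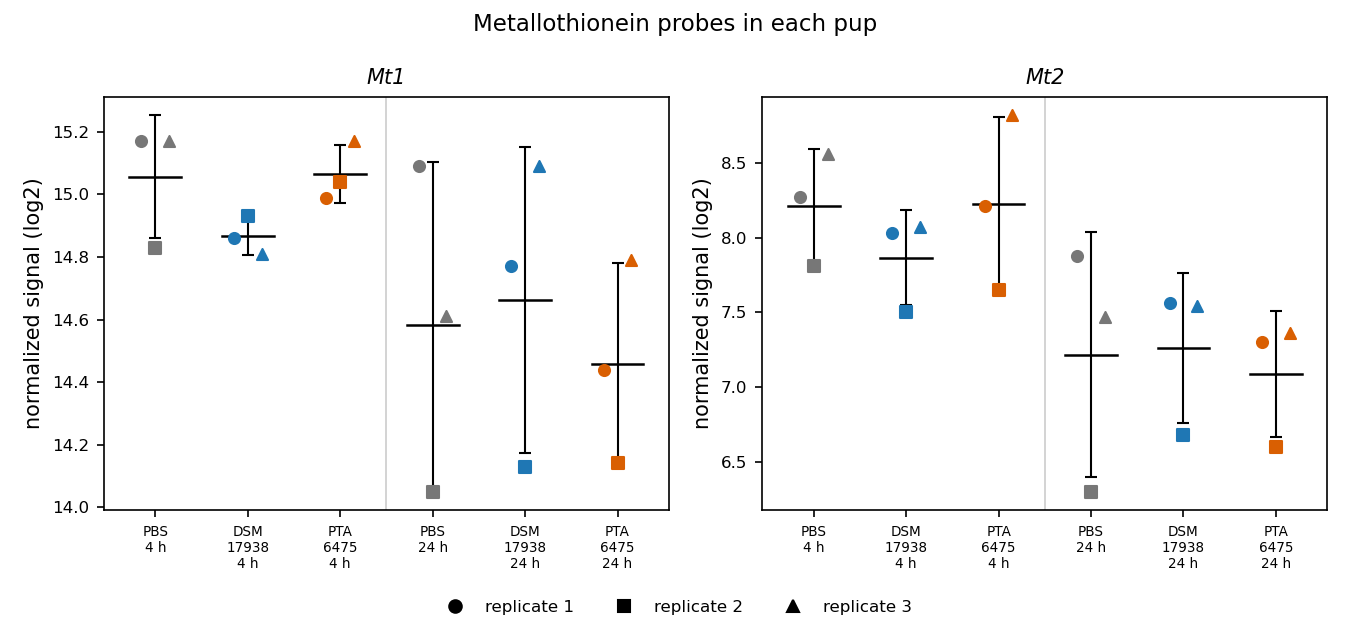
Log2 signal of Mt1 and Mt2 in each of the 18 mice, by treatment and hour after gavage, with bars for the mean ± SD of 3 mice. Mt2 stood at 7.50 to 8.82 at 4 h and at 6.30 to 7.88 at 24 h.

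The smallest p-values among the 9 genes were between the sampling times. Averaged over the 3 treatments, Mt2 was 1.88-fold lower at 24 h, a log2 difference of -0.91 (SE 0.22, 95% interval -1.38 to -0.45, 9 mice against 9). By limma its unadjusted p was 0.000758 and its adjusted p 0.514 over all features. In this fit, made without the replicate numbers on the labels, the difference did not pass the threshold. With those numbers as a block it passed (adjusted p 0.00876 by limma), so the call depends on that choice. Mt1 was 1.35-fold lower, at -0.43 (SE 0.14), with an unadjusted p of 0.00885 and an adjusted p of 0.76 by limma. Slc39a4 stood 1.3-fold higher, at 0.38 (SE 0.15), with an unadjusted p of 0.023 and an adjusted p of 0.827 by limma. These 3 of 9 members had an unadjusted p under 0.05, where 5.71% of all features did. The median difference over the 9 members was 0.02, beside -0.003 over all features; 0 of 9 members, and 0.0119% of all features, had times that did not overlap.

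Within the treatments, the Mt2 difference between the times was -1.0 in PBS pups (SE 0.38), -0.61 in DSM 17938 pups (SE 0.38) and -1.14 in ATCC PTA 6475 pups (SE 0.38). For Mt1 these differences were -0.47, -0.21 and -0.61, each with an SE of 0.25. The time difference was not shown to depend on treatment. For DSM 17938 the Mt2 interaction with PBS was 0.39 (95% interval -0.76 to 1.54, unadjusted p 0.481 by limma), and for ATCC PTA 6475 it was -0.14 (95% interval -1.29 to 1.01, unadjusted p 0.798 by limma). In PBS pups 1 of 9 members, Mt2, had an unadjusted p under 0.05 (0.0191 by limma), where 3.81% of all features did, and 0 of 9 did not overlap between the times, beside 9.25%. In ATCC PTA 6475 pups 2 of 9 did, Mt2 at 0.00888 and Mt1 at 0.0266 by limma, beside 5.92% of all features. In those pups 3 of 9 members did not overlap between the times, Mt1 and Mt2 lower and Slc39a4 higher at 24 h, beside 10.8% of all features. In DSM 17938 pups 0 of 9 had an unadjusted p under 0.05, beside 2.47% of all features, and 0 of 9 did not overlap, beside 5.82%.

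The size of the time difference moved with the replicate number on the labels, whose meaning they do not state. Mt2 was lowest in replicate 2 in 6 of 6 groups, and Mt1 in 4 of 6. The mean difference between 24 h and 4 h within numbers 1, 2 and 3 was -0.59, -1.13 and -1.03 for Mt2, and -0.24, -0.83 and -0.22 for Mt1. For Slc39a4 it was 0.32, 0.64 and 0.18. All 9 of these values kept the direction of the pooled difference. Without the 3 mice of number 2 at 24 h, Mt2 stood at -0.58 (unadjusted p 0.00542 by limma) and Mt1 at -0.20 (0.079), and Slc39a4 at 0.25 (0.163). In PBS pups alone, the Mt2 difference without replicate 2 at 24 h was -0.54, and the Mt1 difference was -0.20.

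Cell markers were set beside the time difference. None of the marker genes passed the adjusted threshold between the times. Summed enterocyte markers were 14.16 to 14.98 at 4 h and 14.22 to 14.62 at 24 h, so the ranges overlapped. Of the 7 measured, 3 stood above 0 and 4 below between the times, with a median of 0, and only Alpi, the intestinal alkaline phosphatase of the brush border, had an unadjusted p under 0.05 (0.35 higher at 24 h, SE 0.16, p 0.0377 by limma). Over all pups 0 of 5 leukocyte, 0 of 5 neutrophil and 0 of 7 goblet markers had an unadjusted p under 0.05, beside 5.71% of all features.

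Within the treatments, some markers stood apart between the times, in directions that differed. Neutrophil markers summed to 8.11 to 8.62 in PBS pups at 4 h and to 8.85 to 10.53 at 24 h, without overlap, and 3 of 5 stood higher at an unadjusted p under 0.05. With DSM 17938 they summed to 9.25 to 10.27 at 4 h and to 8.67 to 9.21 at 24 h, also without overlap but in the other direction, with 1 of 5 lower at that p. In ATCC PTA 6475 pups they summed to 8.44 to 9.02 and 8.27 to 8.87, with overlap. Among the neutrophil markers, Camp (mean 7.92) and Ltf (6.78) were brightest and detected in 18 arrays. S100a8 was detected in 15, S100a9 in 8 and Elane in 5, and the probe for Ngp did not pass the filter. The sum therefore weighs these genes unequally. Goblet cell markers stood higher at 24 h in 7 of 7 genes in PBS pups (2 at an unadjusted p under 0.05) and in 7 of 7 in ATCC PTA 6475 pups (3 at that p). With DSM 17938, 5 of 7 stood lower (3 at that p). The shares of all features at that p were 3.81% in PBS, 2.47% in DSM 17938 and 5.92% in ATCC PTA 6475 pups. Mt2 was lower on average at 24 h in all 3 treatments, and the part of these cells in the time differences was not tested.

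Against PBS, neither strain separated the metallothioneins at either time. At 4 h the Mt1 difference was -0.19 for DSM 17938 (95% interval -0.72 to 0.34) and 0.01 for ATCC PTA 6475 (-0.52 to 0.54). At 24 h it was 0.08 (-0.45 to 0.61) and -0.13 (-0.66 to 0.40). For Mt2 the 4 h differences were -0.35 (-1.16 to 0.46) and 0.01 (-0.80 to 0.82), and the 24 h differences were 0.04 (-0.77 to 0.86) and -0.13 (-0.94 to 0.68). These intervals leave room for changes of either direction, and with 3 mice per group they do not show that the levels were equal. Between the strains, Mt1 was 0.20 higher with ATCC PTA 6475 at 4 h (SE 0.25), without overlap between the groups, and 0.20 lower at 24 h on the log2 scale (a difference of -0.20, SE 0.25), with overlap. Both comparisons with PBS at a given time share the same 3 PBS mice. No member separated from PBS without overlap (0 of 9 in each comparison), beside 8.05% of all features for DSM 17938 at 4 h and 9.04% at 24 h, and 7.7% for ATCC PTA 6475 at 4 h and 21.4% at 24 h.

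Mtf1, the sensor itself, had a within-group SD of 0.18 on the log2 scale. Group means ran from 7.69 ± 0.07 (SD, n = 3) in ATCC PTA 6475 pups at 4 h to 7.92 ± 0.15 in PBS pups at 24 h, with all mice between 7.60 and 8.14. Against PBS, Mtf1 stood at -0.18 (SE 0.15) at 4 h and -0.20 (SE 0.15) at 24 h with ATCC PTA 6475, and at 0.04 and -0.04 with DSM 17938. None of these passed the threshold. Its difference between the times was 0.02 (95% interval -0.17 to 0.20). The other 2 Mtf1 probes followed the one used only loosely, with r of 0.226 and 0.346 over the 18 arrays.

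Slc39a4 encodes ZIP4, the importer at the apical face of the enterocyte, loss of which causes the human zinc deficiency acrodermatitis enteropathica. Its log2 signals in PBS pups were 10.47, 9.97 and 10.63 at 4 h, and 10.45, 11.05 and 10.96 at 24 h. In DSM 17938 pups they were 9.93, 10.84 and 10.98 at 4 h, and 10.45, 11.04 and 10.72 at 24 h. In ATCC PTA 6475 pups they were 9.86, 10.19 and 10.15 at 4 h, and 10.30, 10.81 and 10.62 at 24 h. The ATCC PTA 6475 mice at 4 h were low as a group, and DSM 17938 mice at 4 h ranged widely because replicate 1 was low. Between the strains at 4 h, Slc39a4 was 1.43-fold lower with ATCC PTA 6475, at -0.52 (SE 0.26, unadjusted p 0.0647, adjusted p 1 by limma), and the groups overlapped. Leaving out replicate 1 of the DSM 17938 pups at 4 h gave -0.84 for the same comparison (unadjusted p 0.00281, adjusted p 0.716 by limma). Replicate 1 was lowest for Slc39a4 in 5 of 6 groups, among them the ATCC PTA 6475 pups at 4 h. Leaving it out of only 1 strain therefore makes the comparison unbalanced.

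Slc39a5 encodes ZIP5, a basolateral importer that takes zinc back from the blood side. Its signals were steady, with group means from 10.48 ± 0.26 (SD, n = 3) in ATCC PTA 6475 pups at 4 h to 10.70 ± 0.10 in the same strain at 24 h. All differences against PBS on its brightest probe were between -0.19 and 0.11. The gene has 4 detected probes, and they did not move together. The other 3 had r of 0.414, -0.029 and -0.354 with the brightest, and the last of these stood at -0.72 with DSM 17938 and -0.84 with ATCC PTA 6475 against PBS at 24 h. Averaging the probes turned the 24 h differences to -0.18 and -0.29, so the direction for Slc39a5 depends on the probe.

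Slc39a8 encodes ZIP8, an importer of zinc and manganese, and its probe was close to background. Detected in 8 of 18 arrays, it gave log2 signals of 4.42 to 5.20, with group means from 4.59 ± 0.19 (SD, n = 3) in DSM 17938 pups at 4 h to 4.84 ± 0.33 in the same strain at 24 h. No difference passed the threshold, and signals so near background limit what could be detected. A second Slc39a8 probe did not follow the first (r of -0.195 over the 18 arrays).

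Slc30a1 encodes ZnT1, the exporter of the plasma membrane and a target of MTF1. Its log2 signals in PBS pups were 7.59, 6.92 and 7.21 at 4 h, and 7.13, 7.88 and 7.50 at 24 h. In DSM 17938 pups they were 6.91, 6.91 and 7.26 at 4 h, and 6.62, 7.49 and 7.16 at 24 h. In ATCC PTA 6475 pups they were 6.84, 6.80 and 7.34 at 4 h, and 6.87, 7.28 and 7.13 at 24 h. The PBS mice were the highest on average at both times, and the groups overlapped throughout. At 24 h Slc30a1 stood at -0.42 with DSM 17938 (SE 0.24, 95% interval -0.93 to 0.10, unadjusted p 0.105 by limma) and at -0.41 with ATCC PTA 6475 (SE 0.24, -0.93 to 0.10, unadjusted p 0.109 by limma). Both rest on the same PBS mice, and without PBS replicate 2 at 24 h they were -0.23 and -0.22. At 24 h 0 of 9 members had an unadjusted p under 0.05 against PBS for either strain, beside 4.98% of all features for DSM 17938 and 15.1% for ATCC PTA 6475. Between the times Slc30a1 stood at 0.14 (95% interval -0.15 to 0.44), on the other side of 0 from Mt1 and Mt2. Within replicate numbers 1, 2 and 3 its mean difference was -0.24, 0.68 and -0.01. Without the number 2 mice at 24 h it was -0.02, so its direction depends on those mice.

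Slc30a2 encodes ZnT2, which loads zinc into vesicles and is known from Paneth cell granules and the lactating mammary gland. Its log2 signals at 4 h were 10.90, 9.66 and 9.91 in PBS pups, 9.76, 9.52 and 9.46 in DSM 17938 pups, and 9.98, 9.90 and 10.07 in ATCC PTA 6475 pups. At 24 h they were 10.11, 9.31 and 9.93 in PBS pups, 9.73, 9.51 and 9.73 in DSM 17938 pups, and 9.94, 9.85 and 9.85 in ATCC PTA 6475 pups. PBS replicate 1 at 4 h was the highest of all 18 mice, and the PBS and DSM 17938 groups overlapped. At 4 h Slc30a2 was 1.49-fold lower with DSM 17938 than with PBS, at -0.57 (SE 0.25, 95% interval -1.10 to -0.05, unadjusted p 0.0344, adjusted p 1 by limma). It was the 1 member of 9 with an unadjusted p under 0.05 in that comparison, beside 3.34% of all features, and without PBS replicate 1 the difference was -0.20 (unadjusted p 0.307 by limma). For ATCC PTA 6475 at 4 h the difference was -0.17 (SE 0.25), and without that mouse it turned to 0.20. In that comparison 0 of 9 members had an unadjusted p under 0.05, beside 3.33% of all features.

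Slc30a2 also separated the strains without overlap at both times. It was higher with ATCC PTA 6475 than with DSM 17938 by 0.40 at 4 h (SE 0.25, unadjusted p 0.127 by limma) and by 0.22 at 24 h (SE 0.25, unadjusted p 0.388 by limma). Scaling to a common median, which moved the median of all features to -0.166 at 24 h, turned the 24 h difference to -0.06, so its direction depends on the scaling. At 4 h 2 of 9 members, Mt1 and Slc30a2, did not overlap between the strains, beside 8.17% of all features. At 24 h Slc30a2 was the 1 member of 9, beside 7.23%. Under the fit 0 of 9 members had an unadjusted p under 0.05 at 4 h, beside 3.38% of all features, and 0 of 9 at 24 h, beside 4%. Paneth markers, 5 of 7 measured, summed to 11.54 to 13.06 in PBS, 12.59 to 13.82 in DSM 17938 and 13.17 to 13.57 in ATCC PTA 6475 pups at 4 h. At 24 h they summed to 12.67 to 13.13, 12.93 to 13.85 and 12.42 to 13.72. Neutrophil markers, 5 of 6 measured, summed to 9.25 to 10.27 in DSM 17938 pups at 4 h against 8.11 to 8.62 in PBS pups, without overlap. They summed to 8.44 to 9.02 in ATCC PTA 6475 pups at 4 h, below the DSM 17938 pups.

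Other cell markers differed between the strains as well. At 4 h leukocyte markers stood higher with ATCC PTA 6475 than with DSM 17938 in 5 of 5 genes, with a median of 1.12. Of these, 4 had an unadjusted p under 0.05, beside 3.38% of all features. Against PBS the leukocyte markers also stood higher in 5 of 5, with a median of 0.99, and 3 had that p, beside 3.33%. Their summed levels at 4 h were 8.24 to 9.99 in PBS, 9.37 to 10.01 in DSM 17938 and 9.09 to 11.00 in ATCC PTA 6475 pups, and these ranges overlapped. Goblet markers at 4 h stood lower with ATCC PTA 6475 than with DSM 17938 in 7 of 7 genes (2 at an unadjusted p under 0.05, beside 3.38%). At 24 h they stood higher in 6 of 7 (3 at that p), and leukocyte markers higher in 5 of 5 (0 at that p), beside 4% of all features. None of these markers passed the adjusted threshold, and the part of all these cells in the Slc30a2 and other strain differences was not tested.

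Slc30a10 encodes ZNT10, known in mammals chiefly as a manganese exporter. Its group means were 9.43 ± 0.30 (SD, n = 3) in PBS, 9.71 ± 0.35 in DSM 17938 and 9.86 ± 0.38 in ATCC PTA 6475 pups at 4 h, and 9.59 ± 0.41, 9.45 ± 0.23 and 9.72 ± 0.28 at 24 h. The mice of all groups overlapped, from 9.16 to 10.24. Its largest difference against PBS was 0.42 with ATCC PTA 6475 at 4 h (SE 0.25, unadjusted p 0.11 by limma). A pair of further detected probes followed the one used, with r of 0.828 and 0.849 over the 18 arrays, and gave 0.19 and 0.29 for the same comparison.

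**Figure D2:**
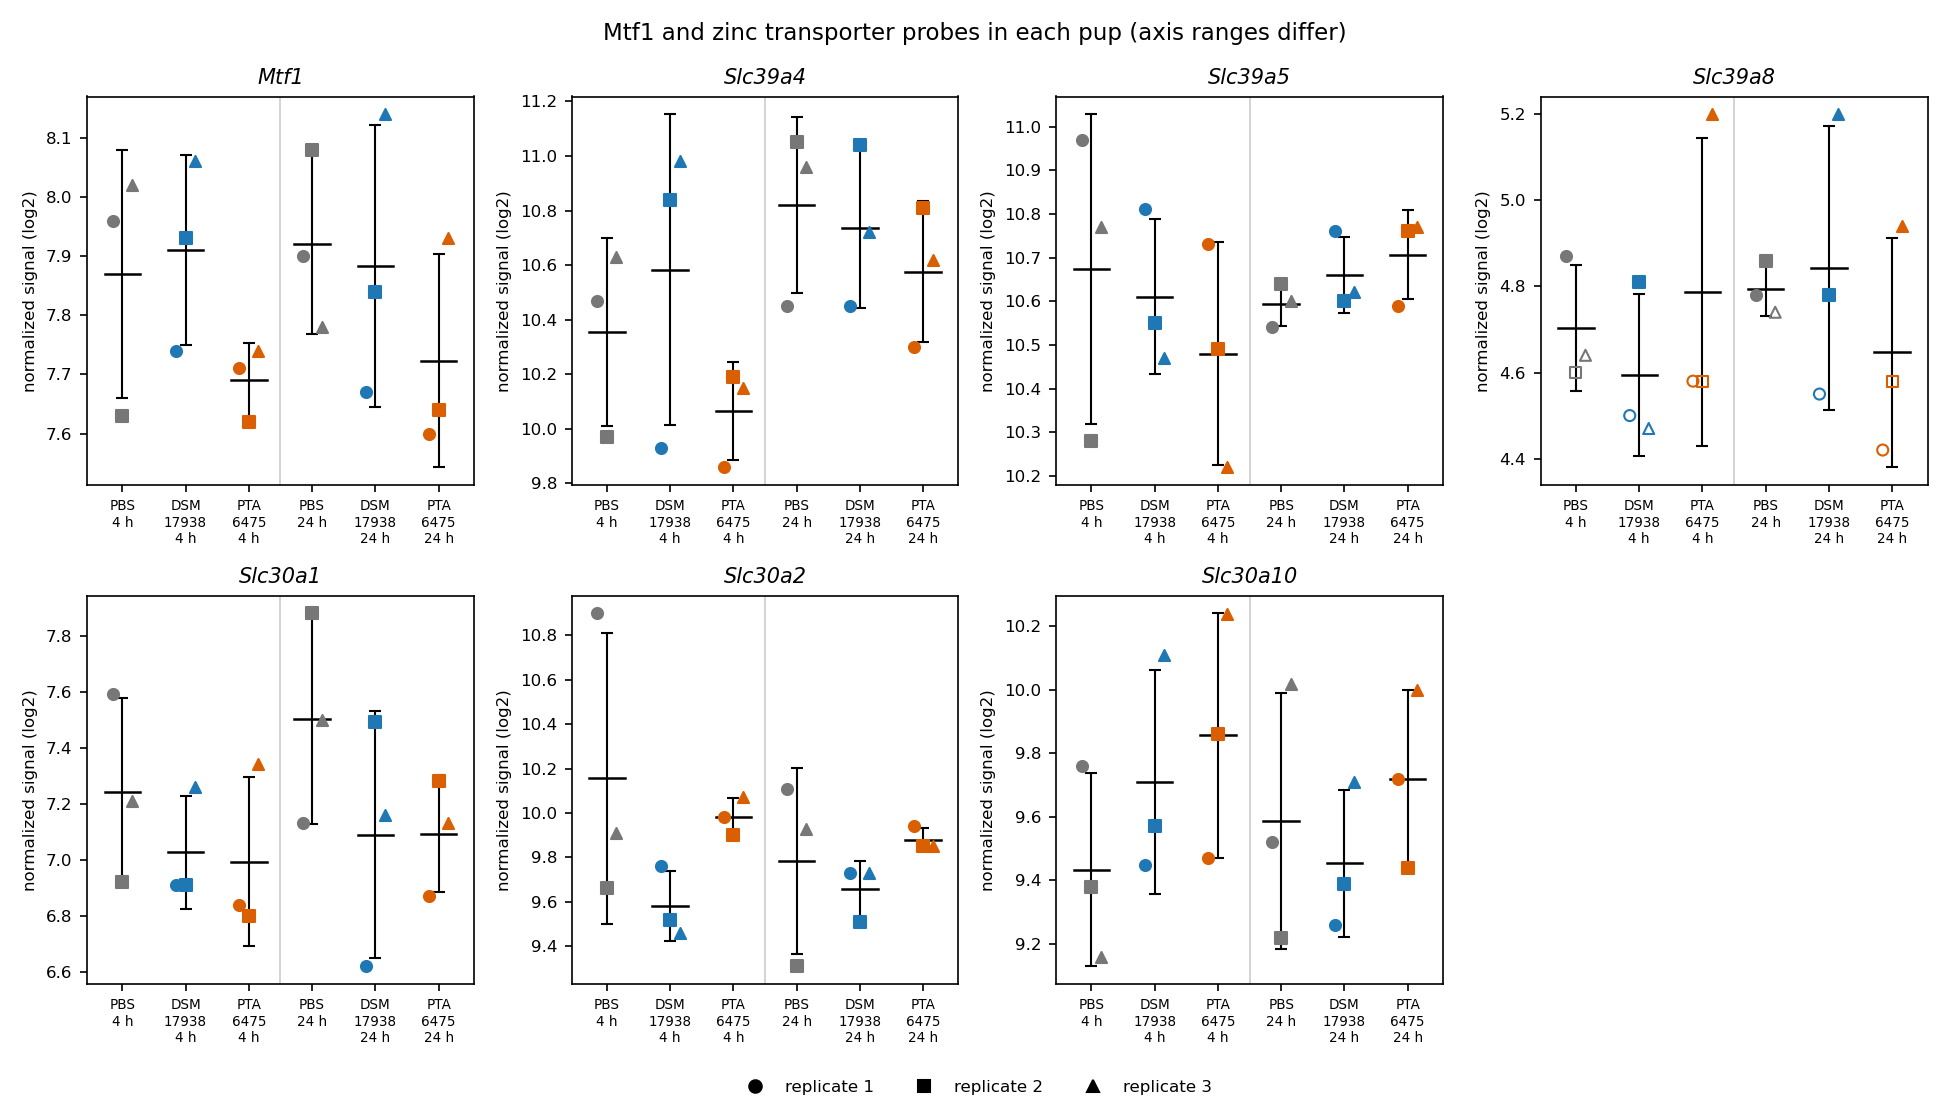
Log2 signal of Mtf1 and the 6 transporters in each of the 18 mice, by treatment and hour, with bars for the mean ± SD of 3 mice and open symbols where the Slc39a8 probe was not detected. PBS replicate 1 at 4 h stands apart for Slc30a2 at 10.90, and Slc39a8 lies between 4.42 and 5.20.

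**Figure D3:**
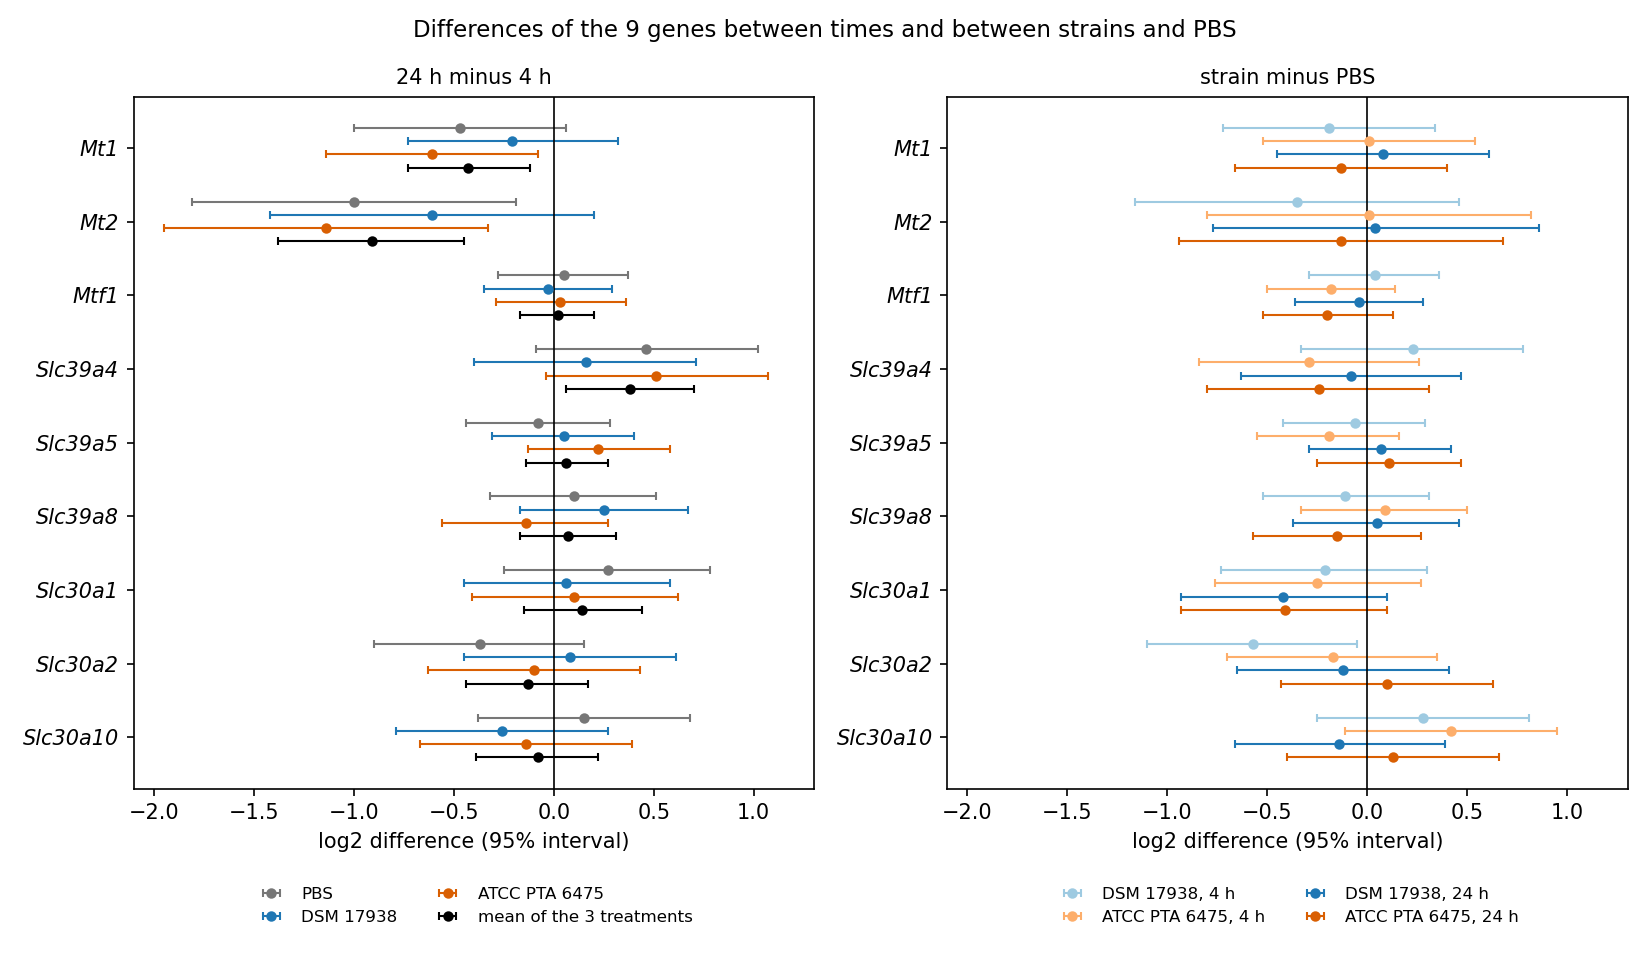
Log2 differences of the 9 genes in the comparisons, with 95% intervals from the limma fit. Over all pups, the intervals between the times of Mt2 (-1.38 to -0.45) and Mt1 (-0.73 to -0.12) lie below 0. That of Slc39a4 (0.06 to 0.70) lies above 0. Intervals between the times also lie below 0 for Mt2 in PBS pups (-1.81 to -0.19). In ATCC PTA 6475 pups they do for Mt2 (-1.95 to -0.33) and Mt1 (-1.14 to -0.08). The interval of Slc30a2 for DSM 17938 against PBS at 4 h reaches from -1.10 to -0.05.

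The strains' differences from PBS were not shown to change between 4 h and 24 h for any member. For DSM 17938 the interaction ran from -0.41 for Slc30a10 to 0.45 for Slc30a2 (SE 0.35 each), and 0 of 9 members had an unadjusted p under 0.05, beside 2.21% of all features. With single arrays left out, that of Slc30a2 ranged from 0.08 (without PBS replicate 1 at 4 h) to 0.70 (without PBS replicate 2 at 4 h). That of Slc30a10 ranged from -0.60 (without PBS replicate 2 at 24 h) to -0.20 (without PBS replicate 3 at 24 h). For ATCC PTA 6475 it ran from -0.29 for Slc30a10 to 0.30 for Slc39a5 (SE 0.35 and 0.24), and 0 of 9 did, beside 4.7% of all features. Over single arrays left out, that of Slc30a10 ranged from -0.48 to -0.07 and that of Slc39a5 from 0.15 to 0.50. The median interaction over the members was 0.13 and -0.14, beside 0.005 and 0.007 over all features.

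Mt1 and Mt2 varied together among mice of the same group. After each value was centred on its group mean, r was 0.807 and Spearman's rho 0.827 over 18 arrays (permutation p 4e-05 and 9e-05). Adjusted over the 36 pairs of members these were 0.00144 and 0.00324. The relation was r = 0.681 without the 2 arrays farthest from the median of Mt1. Without the 3 arrays of number 2 at 24 h it was 0.439. Uncentred values within replicate numbers 1, 2 and 3 had r of 0.877, 0.959 and 0.707. Each number holds 1 array per group, so these values include differences between groups. An exact permutation within groups, which moves values only among mice treated alike, gave p = 0.00206 and an adjusted p of 0.0741. The pair thus passed the threshold when values moved over all arrays and missed it when they moved within groups. Values were centred on group and not on replicate number. Number 2 was lowest for Mt2 in 6 of 6 groups and for Mt1 in 4 of 6. The part of the replicate number in this relation was not tested.

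The second pair past the threshold joined an importer and an exporter, Slc39a4 and Slc30a1. Their r was 0.679 and rho 0.664 (permutation p of r 0.00206, adjusted p 0.0371), and r was 0.718 without the 2 farthest arrays. Uncentred within replicate numbers, and so including differences between groups, r was 0.345, 0.753 and 0.152, highest in number 2. Number 1 was lowest for Slc39a4 in 5 of 6 groups and for Slc30a1 in 4 of 6, and its part in the relation was not tested. The exact permutation within groups gave p = 0.00566 and an adjusted p of 0.102. In all, 27 of 36 pairs had a positive r. Mt1 and Mt2 had r of -0.409 and -0.269 with Slc30a1, a gene that shares their known regulator, and neither passed the threshold. Without the 2 farthest arrays these were -0.073 and 0.075, so the negative values rest on few arrays. Uncentred within numbers 1, 2 and 3, r with Slc30a1 was 0.642, -0.916 and -0.424 for Mt1. For Mt2 it was 0.568, -0.931 and 0.098. With Mtf1, the r of Mt1 and Mt2 was 0.26 and 0.106.

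**Figure D4:**
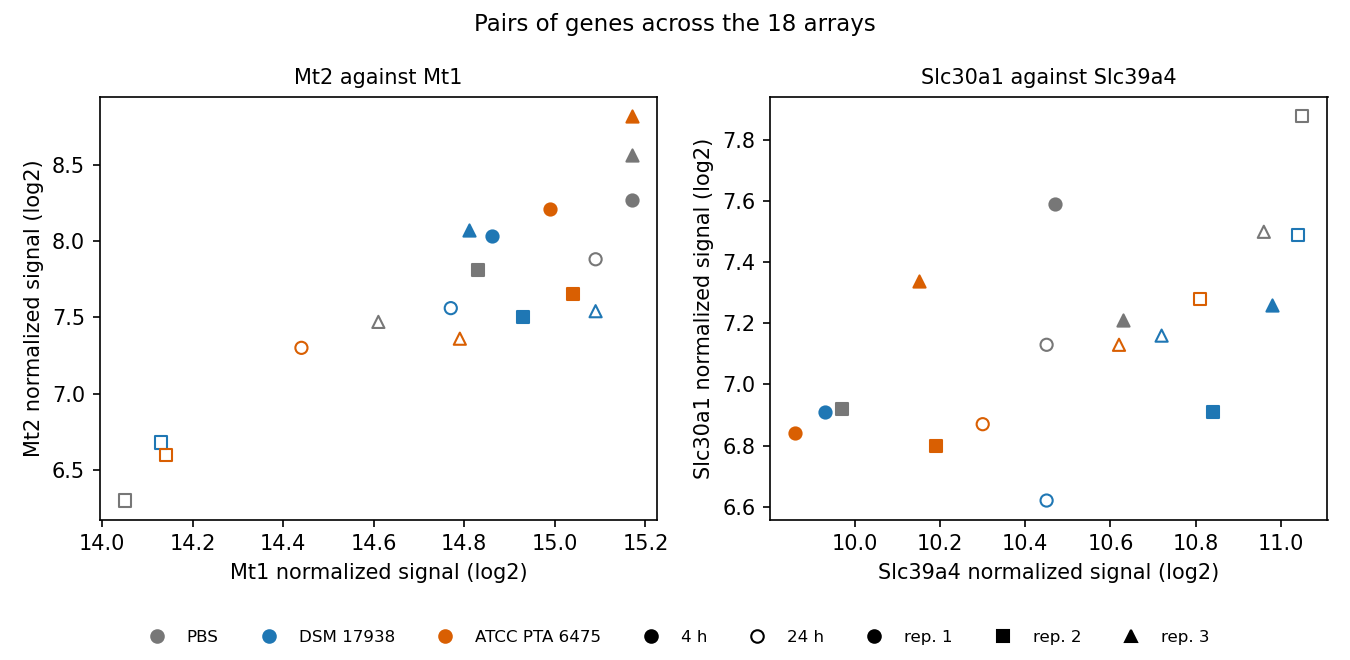
Log2 signals of Mt2 against Mt1 and of Slc30a1 against Slc39a4, not centred, 1 point per mouse, filled for 4 h and open for 24 h. The plotted values rise together with r of 0.888 and 0.619. After centring on group means, r was 0.807 and 0.679.

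Genes whose levels were most like those of each member over the 18 arrays were ranked among 12392 named genes by Pearson's r, as a description with no test. The arrays share groups and amplification, so these values say nothing of shared control. Mt2 was the gene most like Mt1 (r = 0.888), followed by Fn3k (0.872), which encodes a kinase of glycated proteins, Rassf10 (0.784), Vegfb (0.773) and Flrt1 (0.77). For Mt2 the order was Mt1, Fn3k (0.868) and Fbxo21 (0.823). Slc39a4 was most like Ccnf (0.878), Slc51b (0.871), a subunit of the ileal bile acid exporter, and Exoc3l4 (0.846). Slc30a1 was most like Pno1 (0.878), Sqle (0.875), an enzyme of cholesterol synthesis, and Slc35e1 (0.856). Mtf1 was most like Myh14 (0.871), Lrrc1 (0.816) and Arpin (0.812). Slc30a2 was most like Bri3 (0.845), Zmat4 (0.806) and Cpn1 (0.796). Slc39a5 was most like Ribc1 (0.784), Commd7 (0.783) and Abhd11 (0.782), and Slc30a10 most like Zfp810 (0.778), Zfp27 (0.77) and Mecom (0.762). The near-background Slc39a8 probe was most like Gabarapl2 (0.752), Tigd3 (0.748) and Ints2 (0.736).

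The wider family was read from lists of metal-handling genes, and 0 of their members passed the adjusted threshold in any comparison. Of the other metallothioneins, Mt3 was detected in 18 arrays and Mt4 in 3, and between the times both stood slightly lower, from -0.13 to -0.09. Among 9 of 11 other Zip genes measured, Slc39a1, a plasma-membrane importer, stood lower than PBS at 4 h with DSM 17938 (-0.41, SE 0.15) and with ATCC PTA 6475 (-0.38, SE 0.15), with unadjusted p of 0.0162 and 0.0233 by limma. Those comparisons share the PBS mice. Slc39a13, an importer of the secretory pathway, stood higher with ATCC PTA 6475 at 4 h (0.41, SE 0.18) and at 24 h (0.42, SE 0.18), and Slc39a6 lower at 24 h (-0.41, SE 0.18). Slc39a11 stood at -0.45 (SE 0.19) with DSM 17938 at 24 h, and Slc39a6 at -0.39 (SE 0.18) between the times in ATCC PTA 6475 pups. With ATCC PTA 6475, 1 of 9 was higher and 1 lower at an unadjusted p under 0.05 at each time. All features had 3.33% at 4 h and 15.1% at 24 h. With DSM 17938, 1 of 9 was lower at each time, beside 3.34% and 4.98%. Between the times in ATCC PTA 6475 pups 1 of 9 was lower, beside 5.92%. Of 7 of 7 other ZnT genes, 0 had an unadjusted p under 0.05 in any of the 12 comparisons. Their differences between the times ran from -0.22 to 0.22 with a median of 0.

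Of the iron and copper genes, 12 of 13 were measured. Only Cybrd1 among them, the brush-border iron reductase, had an unadjusted p under 0.05, at -0.38 (SE 0.15) with ATCC PTA 6475 at 4 h, -0.35 (SE 0.15) between the times in PBS pups and -0.21 (SE 0.09) between the times over all pups. That is 1 of 12 in each of these comparisons, beside 3.33%, 3.81% and 5.71% of all features. Of the 8 glucocorticoid-responsive genes, 0 had an unadjusted p under 0.05 between the times over all pups. Of these, 6 stood above 0 in that comparison, and the differences of the 8 genes ran from -0.05 to 0.12. Any relation of these genes to Mt1 and Mt2, which stood below 0, was not tested. Against PBS, Sgk1, a kinase that regulates ion transport, stood at -0.55 (SE 0.20) with DSM 17938 at 4 h, and between the strains at that time at 0.74 (SE 0.20, unadjusted p 0.00234, adjusted p 1 by limma). Fkbp5, a chaperone of steroid receptors, stood at -0.49 (SE 0.18) with DSM 17938 at 24 h. Zbtb16, a zinc finger transcription factor, stood at 0.60 (SE 0.19) with ATCC PTA 6475 at 24 h, with an interaction of 0.62 (SE 0.27). In each of these comparisons the named gene was the 1 of 8 with an unadjusted p under 0.05. The shares of all features were 3.34% and 3.38% for the Sgk1 comparisons and 4.98% for that of Fkbp5. For those of Zbtb16 they were 15.1% and 4.7%.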

How the data were processed

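Transcripts of 18 mice, 3 in each of 6 groups named by the labels, were measured with 1 mouse to an array, and p-values rest on the spread among mice. The labels' protocols name PicoPure RNA and Ambion MessageAmp labelling, and GenomeStudio is the only program in the submitters' processing notes. Neither its version nor any background correction is given in the sources used here. Bead signals are deposited as linear intensity without normalisation between arrays, as the file headers say. The detection columns, as deposited, hold a fraction from 0 to 1 that rises with signal and was used as 1 minus the detection p-value. The table of values deposited by the authors is in log2, with a median of 5.92 in every column, lies within 0.0386 of the log2 of quantile-normalised, uncorrected signals, and served as an alternative. All 18 arrays matched their own column best (r at least 0.997941), and no arrays were identical.

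Signals were corrected and quantile-normalised by the neqc method of limma (version 3.58.1, R 4.3.3, offset 16, log2), so differences are relative to a shared distribution. A probe was kept if its detection p was under 0.05 on 3 or more arrays, which held for 24506 of 45281. Symbols came from the platform annotation, with 34807 of them updated by gene ID, and gave 1 symbol to 34885 probes, several to 18 and none to 10378. The brightest detected probe stood for its gene, leaving 12804 genes and 4031 unnamed probes. Mt1, Mt2, Slc30a1 and Slc30a2 have 1 probe each, and Slc39a4 has 1 of 2 detected.

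limma was fitted to all 18 arrays with a mean per group (12 residual and 4.251 prior degrees of freedom, median SE of a difference 0.183), and p-values were adjusted by Benjamini-Hochberg over 16835 features within each of 12 comparisons at 0.05. An exact permutation of 3 against 3 mice cannot go below p = 0.1. Correlations used 100000 permutations, two-sided. Marker levels are the log2 of summed signals. The members, lists and markers were chosen with earlier results of these data known. Of the list genes, those with an unadjusted p under 0.05 are named, up to 4 per list and comparison, and for likeness the 3 highest per gene (5 for Mt1). The fit was tested on simulated data. Positions are those of RefSeq promoters on GRCm38.p6, since no build is given in the sources used here for the arrays.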

Additional observations from a re-analysis of the deposited data

How the results depend on the processing

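Of 2904 recomputed member differences under 27 settings, 2893 kept their direction and side of the threshold, where a sign turned within 1 SD between mice counted as unchanged. Each setting changed 1 choice: the offset (50), the scaling (to a common median), the source (deposited values), the detection filter (none or stricter), a replicate block, array weights, only the compared arrays, the mean over probes, or 1 of 18 arrays left out. With the replicate block, Mt2 between the times over all pups kept -0.91 and passed (p 5.21e-07, adjusted p 0.00876 by limma), the 1 member and 1 feature called there, and 246 features passed for ATCC PTA 6475 against PBS at 24 h. The main fit did not use the replicate numbers, whose meaning the labels do not state. Of 45 same-numbered pairs of arrays, 31 had r above 0.1 (-0.048 to 0.507), and 15 of 18 arrays correlated best with their own number. In the running numbers of the file headers, the arrays of each replicate number form an unbroken run, with 1 array from each group. The block follows this layout, which the main fit leaves out. Mt2 between the times ranged from -1.02 to -0.76 over all settings, Mt1 from -0.51 to -0.34 and Slc39a4 from 0.27 to 0.44. With only the compared arrays, 6 features passed for DSM 17938 against PBS at 24 h, 6 for PBS between the times and 1 between the strains at 24 h. Array weights called 1 feature in ATCC PTA 6475 pups between the times and 1 over all pups. Leaving out single arrays gave 0 to 10 features for DSM 17938 against PBS at 4 h (10 without DSM 17938 replicate 1), 0 to 2 for it at 24 h, 0 to 1 for ATCC PTA 6475 with PBS as control at 24 h, 0 to 8 between the strains at 4 h (8 without DSM 17938 replicate 1), 0 to 1 at 24 h, 0 to 2 between the times in PBS pups, 0 to 3 in DSM 17938 pups, 0 to 2 in ATCC PTA 6475 pups and 0 to 1 over all pups. Without PBS replicate 1 at 4 h, Slc30a2 turned to 0.20 for ATCC PTA 6475 at 4 h (-0.42 to 0.20 over single arrays) and its interaction to -0.10 (-0.10 to 0.52). The mean over probes turned Slc39a5 to -0.18 and -0.29 against PBS at 24 h, -0.15 between the times in ATCC PTA 6475 pups, and -0.15 and -0.20 in the interactions. For ATCC PTA 6475 with PBS as control at 24 h, median scaling turned Slc39a5 and Slc30a2 to -0.22 and -0.23, and it turned Slc39a5 between the strains at 24 h to -0.22, where it moved the median of all features to -0.156 and -0.166; the shifts for ATCC PTA 6475 against PBS at 4 h and between its times were -0.107 and -0.124. The cause was not tested. Chosen after seeing the data were the within-number values, leaving out number 2 at 24 h, and the exact permutation within groups, under which the adjusted p of Mt1 with Mt2 was 0.0741 and of Slc39a4 with Slc30a1 0.102. Signals near background limit Slc39a8, and the top of the scale limits Mt1.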
